A study of Mus musculus with 5 samples.

Results

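The genes of MHC class I antigen presentation were followed in the cells of 5 mouse synovial sarcoma (SyS) tumours. There were 10 of them among 32286 features, taken by gene symbol from a fixed list. They were the heavy chains *H2-K1* and *H2-D1*, their light chain *B2m*, the peptide transporter genes *Tap1* and *Tap2*, the loading factor *Tapbp*, the immunoproteasome subunits *Psmb8*, *Psmb9* and *Psmb10*, and the transactivator *Nlrc5*. All 10 were in the files, and all 10 passed the filter on low counts in each of the 3 class comparisons. They were compared between tumour cells and the endothelial, mural and macrophage cells of the same tumour, and then by the histology in the tumour's label.

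All 5 tumours were *hSS2*, in which human *SS18::SSX2* is expressed from the *Rosa26* locus once TATCre protein has been injected into the limb, and all were taken from mice of a mixed strain background when the animals became morbid. By their labels, 2 tumours were biphasic (BP), with glands of epithelial cells among spindle cells, 1 was monophasic (MP), 1 was both of these (MP+BP), and 1, PD+MP, was poorly differentiated in part and monophasic for the rest. The fusion is present in every tumour, so no group lacks it, and 3 of the 4 labels are held by 1 tumour. The labels of both BP tumours share a leading number, and whether they came from 1 animal was not stated.

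Class I molecules carry peptides from inside the cell to its surface, where CD8 T cells read them. Proteins are cut by the proteasome, the peptides are pumped into the endoplasmic reticulum by the TAP transporter, and tapasin (*Tapbp*) holds an empty heavy chain with *B2m* beside the transporter until a peptide binds. Interferon gamma raises nearly every gene of this route. It also replaces 3 catalytic subunits of the standard proteasome with those of the immunoproteasome, and it induces *Nlrc5*, which acts on class I promoters as *Ciita* acts on class II promoters. Loss of class I from tumour cells is a known route of escape from T cells, and synovial sarcoma is known for low class I levels.

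On build GRCm38, 7 of the 10 genes lay on chromosome 17 in the mouse MHC, and all 10 were annotated as protein-coding. *H2-K1* lay at chr17:33996017-34000347 on the minus strand and *H2-D1* at chr17:35262730-35267499 on the plus strand. *Psmb9* (chr17:34181987-34187764, minus strand), *Tap1* (chr17:34187553-34197225, plus strand), *Psmb8* (chr17:34197721-34201454, plus strand) and *Tap2* (chr17:34203527-34216321, plus strand) followed each other, and *Tapbp* lay at chr17:33915899-33929292 on the plus strand. *B2m* was at chr2:122147686-122153083 on the plus strand. *Nlrc5* (chr8:94434356-94527272, plus strand) and *Psmb10* (chr8:105935735-105938444, minus strand) were on chromosome 8.

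RefSeq promoters (GRCm38.p6) were matched for 8 of the 10 genes, all but *Tap2* and *Nlrc5*, and the 250 bases upstream of the RefSeq start were searched on both strands for 4 motifs. These were the core bound by interferon regulatory factors (AANNGAAA), the gamma-activated site (TTCNNNGAA), a kappa B core (GGGGATTCC) and the inverted CCAAT box (ATTGG). The stretches that follow show motif matches of the 3 class I chains and of *Psmb8*, the gene with the largest difference between classes. Not every match lies within them. Among those outside are the CCAAT match of *B2m* and, on the other strand, 1 of *H2-D1*, each at -53 from the RefSeq start. Capitals mark the motif matches, and TTTCACTT is the interferon regulatory factor core read on the other strand.
H2-K1: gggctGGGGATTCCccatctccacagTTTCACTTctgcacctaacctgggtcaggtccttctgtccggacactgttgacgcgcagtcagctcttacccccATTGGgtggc
H2-D1: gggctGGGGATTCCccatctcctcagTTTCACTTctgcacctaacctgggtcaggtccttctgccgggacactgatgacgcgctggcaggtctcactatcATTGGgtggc
B2m: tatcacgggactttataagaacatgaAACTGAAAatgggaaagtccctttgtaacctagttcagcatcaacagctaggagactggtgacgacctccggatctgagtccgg
Psmb8: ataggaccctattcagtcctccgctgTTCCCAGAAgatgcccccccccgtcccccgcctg

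The stretches are chr17:34000354-34000463 (minus strand) for *H2-K1*, chr17:35262918-35263027 (plus strand) for *H2-D1*, chr2:122147524-122147633 (plus strand) for *B2m* and chr17:34198072-34198131 (plus strand) for *Psmb8*. The heavy chain stretches were identical at 99 of 110 bases (90%) and held the kappa B core, the interferon regulatory factor core and the CCAAT box in the same order. The *B2m* window held the interferon regulatory factor core and a CCAAT box nearer its start. The *Psmb8* window held the gamma-activated site, which none of the other 7 windows did. *Tapbp*, *Psmb9* and *Tap1* held the CCAAT box only, and *Psmb10* held none of the 4. Among 32851 promoter windows of this length, 21.3% held the interferon regulatory factor core, 7.02% the gamma-activated site, 0.213% the kappa B core and 33.8% the CCAAT box. The windows of *Tap1* and *Psmb9*, which are transcribed away from each other, shared 225 bases. The RefSeq starts used are not always the GENCODE gene ends given above: the windows of *H2-D1*, *Psmb8*, *Psmb9* and *Tapbp* lie inside the GENCODE genes, downstream of their first base, and those of the others overlap the gene by part of their length at most. A match describes letters only, and binding was not measured in these samples.

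The matrices held 51670 cells (8931 to 11565 per tumour, with 89996321 to 118649103 unique molecular identifiers, UMIs, per tumour), of which 39559 were kept. Cells were clustered without the 10 genes and named from markers, which gave 24794 SyS-like, 2427 endothelial-like, 1260 mural-like and 3644 macrophage-like cells. The 4 unnamed clusters, with 5930 cells, stayed out. The *EGFP* entry of the reference, which was not used in clustering, stood at 35.1 ± 4.8 CPM (UMIs of a gene per 1e6 UMIs of the sum; SD, n = 5) in SyS-like cells and at means of 0.959 in endothelial-like, 3.18 in mural-like and 1.53 in macrophage-like cells. Each library pair shared 15 to 33 cell barcodes. PD+MP gave only 81 endothelial-like and 38 mural-like cells against at least 521 and 182 in the other tumours, so its values in these classes rest on few UMIs, such as 4 for *Tap1* and 10 for *Psmb8* in mural-like cells. Levels below are CPM over the UMIs of 1 tumour and class, compared between classes within a gene and not between genes. Class sums are RNA shares, so more transcripts of a gene cannot be told apart from fewer of the rest.

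The macrophage-like class had the highest mean of the 4 for 7 of the 10 genes, the SyS-like class for *Tapbp* and *Nlrc5*, and the endothelial-like class for *Tap2*. For *Tap1* the macrophage-like mean rested on PD+MP (48.8 CPM, against 16.4 to 20.6 in the other tumours). By median, *Tap1* was at 21.5 CPM in endothelial-like and 20.2 in macrophage-like cells. Against macrophage-like cells, SyS-like cells were lower in 8 of the 10 genes (adjusted p under 0.05, edgeR with the tumour as a block) and higher in none, with a median log2 fold change of -2.16 beside 0.33 over all 19835 genes tested. The background there was 25% of genes called lower and 37.1% called higher. Against endothelial-like cells, 5 were lower and 2 higher, with a median of -0.59 beside 0.26 over 20004 genes, of which 21.2% were called lower and 33.3% higher. Against mural-like cells, 3 were lower and 2 higher, with a median of 0.21 beside 0.19 over 19776 genes, of which 14.8% were called lower and 19.3% higher. The 3 comparisons share their SyS-like sums. The background, here and for the gene lists below, depends on the filter on low counts. With at least 10 UMIs in every sum, 2159 of 7141 genes were lower and 2217 higher against endothelial-like cells. Against mural-like cells 1133 of 4344 were lower and 1040 higher, and against macrophage-like cells 3025 of 9439 were lower and 3211 higher. Lower calls were thus a larger share of genes than under the main filter.

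**Figure D1:**
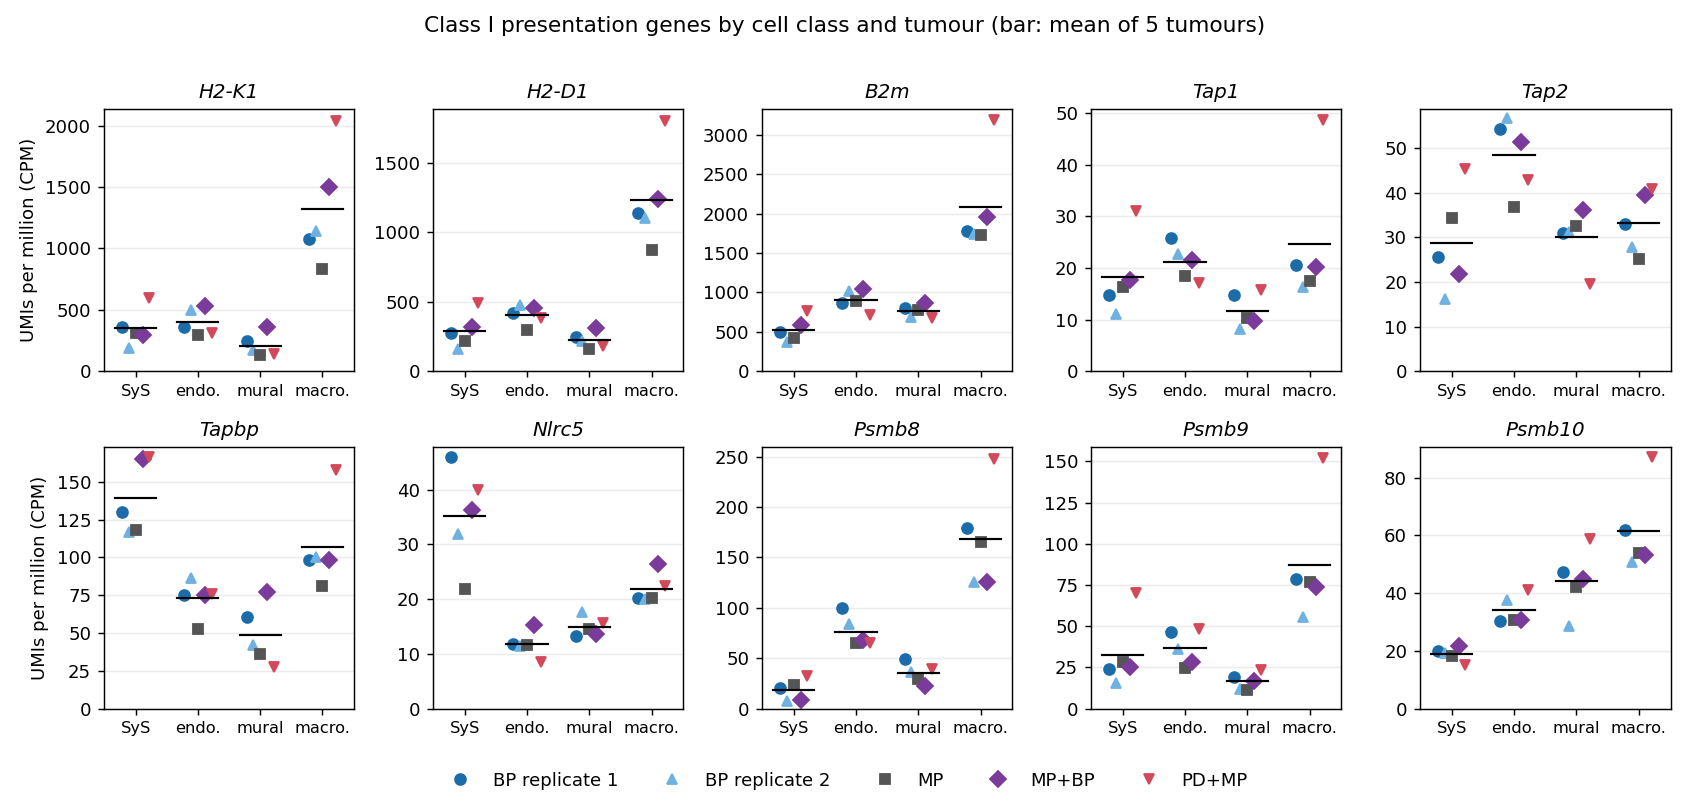
CPM of each class I presentation gene (linear axis) in SyS-like, endothelial-like, mural-like and macrophage-like cells, 1 point per tumour with a bar at the mean of 5 tumours. Macrophage-like points for *H2-K1* (833 to 2040.5) lie above all SyS-like points (185 to 600.1), whereas for *Nlrc5* the SyS-like points (21.9 to 46.0) lie above all endothelial-like ones (8.58 to 15.3).

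The classical heavy chains and their partner were far lower in SyS-like than in macrophage-like cells. *H2-K1*, one of the heavy chains that bind peptide, showed SyS-like levels of 363 CPM in BP replicate 1, 185 in its fellow BP tumour, 310 in MP, 295 in MP+BP, and 600.1 for PD+MP. In the macrophage-like cells of the same tumours it was at 1074, 1140.3, 833, 1504 and 2040.5 CPM. The groups did not overlap, the macrophage-like level was 2.68 to 6.17 times the SyS-like one within a tumour, and PD+MP was highest in both classes. The log2 fold change was -2.50 (SE 0.22, adjusted p = 1.09e-06).

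Endothelial-like *H2-K1* (358, 498, 296, 534 and 307 CPM, tumours in that order) spread over the SyS-like range and was above it in 2 of 5 tumours. The difference was not called (log2 -0.39, SE 0.30, adjusted p = 0.297). Without PD+MP it was -0.77 and was called. Mural-like cells had 245, 173, 129, 358 and 137 CPM, below the SyS-like value in 4 of 5 tumours, with a difference of 0.51 that was not called (adjusted p = 0.185). Without MP+BP, the tumour in which mural-like cells were higher, it was 0.77 and was called. By mean the order was mural-like 209 ± 95.5, SyS-like 351 ± 154, endothelial-like 399 ± 110 and macrophage-like 1318 ± 470 CPM (SD, n = 5), in which only the last step was larger than the spread.

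*H2-D1*, the second heavy chain, was at 273.5, 159, 221, 315 and 493 CPM in SyS-like cells and at 1138, 1104, 869.95, 1240.1 and 1807 in macrophage-like cells. Again the groups did not overlap (log2 -2.69, SE 0.19, adjusted p = 1.81e-07). It was higher in endothelial-like cells (416, 479, 294, 452 and 381 CPM) in 4 of 5 tumours, the exception being PD+MP. That difference was called (-0.69, SE 0.23, adjusted p = 0.0299) but was lost on leaving out any 1 of the other 4 tumours. Mural-like levels (162 to 313 CPM) overlapped the SyS-like ones, with a difference of 0.08 (adjusted p = 0.812). Reads of the 2 heavy chains and of other class I loci can be shared or lost in counting, since these genes are near-identical in places.

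*B2m*, the invariant light chain without which heavy chains do not reach the surface, was at 493, 365, 422, 585 and 759 CPM in SyS-like cells. Macrophage-like cells had 1781, 1737, 1734, 1960.1 and 3189 CPM. The groups did not overlap, and the log2 fold change was -2.55 (SE 0.17, adjusted p = 1.04e-07). Unlike the heavy chains, *B2m* was also lower than in both vascular classes. Endothelial-like cells held 866, 1024, 895, 1042 and 710.49 CPM (log2 -0.96, SE 0.21, adjusted p = 0.00310) and mural-like cells 807, 685, 778, 869.59 and 674 CPM (-0.79, SE 0.19, adjusted p = 0.00507). In both the exception was PD+MP, where the SyS-like level was the higher one. Whether *B2m* differed more than the heavy chains was not tested.

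**Figure D2:**
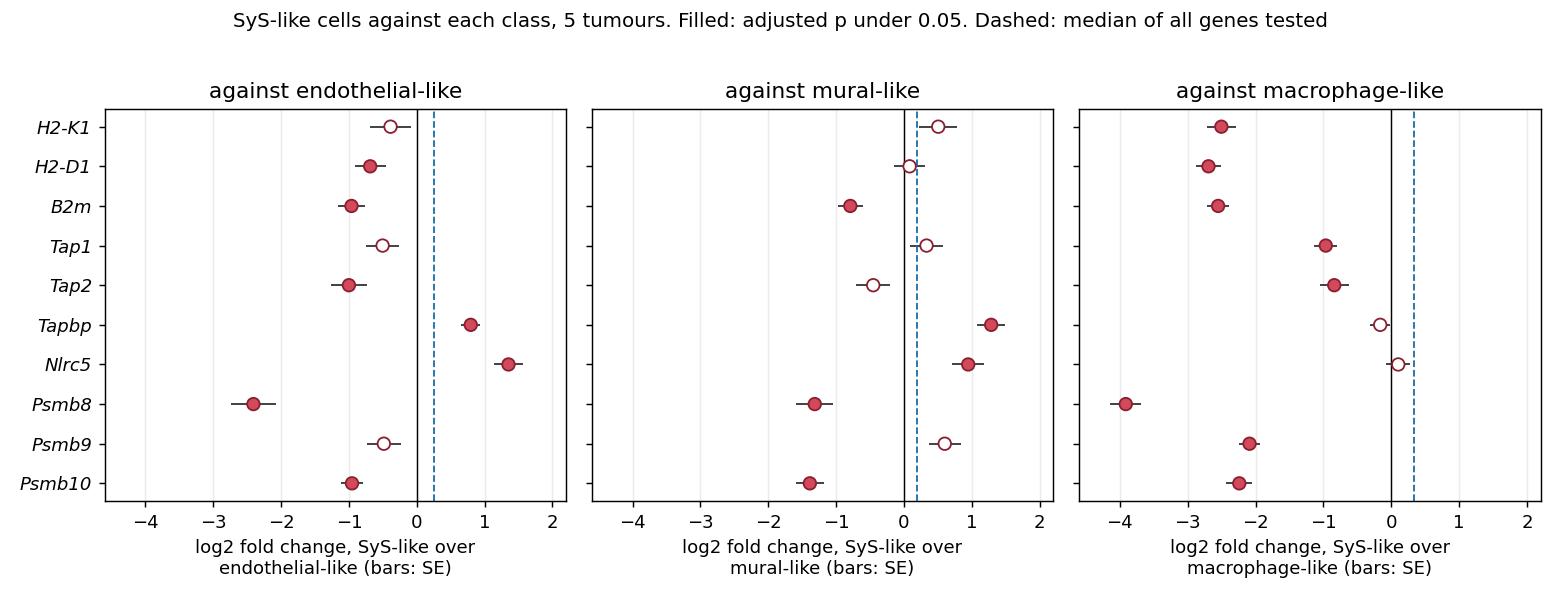
Log2 fold change (SE bars, edgeR) of each of the 10 genes in SyS-like cells over endothelial-like, mural-like and macrophage-like cells of the same 5 tumours, filled where the adjusted p was under 0.05, with a dashed line at the median of all genes tested. *Psmb8* is lowest in the endothelial-like and macrophage-like panels (-2.41 and -3.91), and *Tapbp* and *Nlrc5* are higher against both vascular classes.

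The peptide transporter is made of 1 TAP1 and 1 TAP2 chain. *Tap1* was at 14.7, 11.1, 16.4, 17.7 and 31.0 CPM in SyS-like cells and at 20.6, 16.4, 17.5, 20.2 and 48.8 CPM in macrophage-like cells. It was higher in macrophage-like cells in 5 of 5 tumours, but by only 1.07 to 1.57 times (log2 -0.96, SE 0.17, adjusted p = 0.000364), and the ranges overlapped. Fitted values against macrophage-like cells carry the TMM scaling, under which the median of all genes was 0.33, against 0.89 on total counts. *Tap1* was not called against endothelial-like (17.2 to 25.8 CPM, -0.50, adjusted p = 0.105) or mural-like cells (8.12 to 15.7 CPM, 0.33, adjusted p = 0.321).

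*Tap2* was at 25.6, 16.2, 34.3, 21.9 and 45.3 CPM in SyS-like cells. It was highest in endothelial-like cells, with 54.2, 56.7, 36.7, 51.3 and 42.9 CPM, above the SyS-like level in every tumour but PD+MP. There it was called lower in SyS-like cells (-0.9995, SE 0.26, adjusted p = 0.00954). Against macrophage-like cells (25.1 to 40.8 CPM) it was lower in SyS-like cells of 3 of 5 tumours and called at -0.84 (SE 0.21, adjusted p = 0.00512). That call went with the scaling and was -0.28 and not called on total counts. Mural-like cells had 19.6 to 36.0 CPM (-0.45, adjusted p = 0.185).

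*Tapbp*, which bridges the transporter and the empty class I molecule, ran the other way. SyS-like cells had 129.96, 117, 118, 165 and 166 CPM, against 75.4, 86.3, 52.9, 74.9 and 75.5 in endothelial-like and 60.6, 42.0, 36.2, 76.9 and 27.4 in mural-like cells. The SyS-like values did not overlap either class, and both differences were called, at 0.80 (SE 0.14, adjusted p = 0.00106) and 1.28 (SE 0.21, adjusted p = 0.000333). Only 7 UMIs lay behind the mural-like value of PD+MP, and without that tumour the difference was 1.11 and still called. Macrophage-like cells had 98.2, 100.3, 80.9, 98.0 and 158 CPM, below the SyS-like value in 5 of 5 tumours. The TMM-scaled difference there was -0.16 (adjusted p = 0.354), while on total counts it was 0.40 and called higher.

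The immunoproteasome genes differed among themselves. *Psmb8*, the lowest of the 10 against endothelial-like and macrophage-like cells, encodes the subunit that takes the place of *Psmb5* and has chymotrypsin-like activity. It was at 20.7, 7.36, 23.4, 8.86 and 32.1 CPM in SyS-like cells, a 4.37-fold range over the tumours. Macrophage-like cells had 179, 126, 166, 125 and 248 CPM and endothelial-like cells 99.997, 84.1, 65.1, 67.8 and 65.2 CPM. Neither class overlapped the SyS-like values. The log2 fold changes were -3.91 (SE 0.23, adjusted p = 3.37e-08) and -2.41 (SE 0.34, adjusted p = 0.000224). Mural-like cells had 48.8, 36.5, 29.2, 22.4 and 39.2 CPM, higher than SyS-like cells within 5 of 5 tumours (-1.31, SE 0.27, adjusted p = 0.00219). *Psmb8* was the only gene beside *B2m* and *Psmb10* called lower against all 3 classes.

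*Psmb9*, which replaces *Psmb6* and is transcribed from the same stretch as *Tap1*, was at 24.04, 15.5, 28.3, 25.1 and 70.2 CPM in SyS-like cells, with PD+MP far above the rest. It was lower than in macrophage-like cells (78.4, 55.7, 76.6, 73.6 and 152 CPM) in 5 of 5 tumours (-2.09, SE 0.16, adjusted p = 3.57e-07). It was not called against endothelial-like cells (24.6 to 48.1 CPM, -0.49, adjusted p = 0.125). Against mural-like cells (19.2, 12.2, 11.3, 16.6 and 23.5 CPM) it was higher in 5 of 5 tumours, but the difference missed the threshold (0.60, SE 0.24, adjusted p = 0.0690). Without PD+MP the endothelial difference was -0.76 and was called.

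*Psmb10*, the subunit that replaces *Psmb7*, varied least among the SyS-like sums, with 20.1, 19.2, 18.4, 21.6 and 15.3 CPM. It was higher in endothelial-like (30.4 to 41.2 CPM), mural-like (28.4 to 58.8 CPM) and macrophage-like cells (50.8 to 87.1 CPM) in every tumour, with no overlap in any. The log2 fold changes were -0.95 (SE 0.17, adjusted p = 0.000905), -1.39 (SE 0.21, adjusted p = 0.000177) and -2.24 (SE 0.19, adjusted p = 9.85e-07). PD+MP, highest for 8 of the 10 genes in SyS-like cells, was lowest for this one.

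Within a cell the immunoproteasome subunits are known to displace standard ones, so each was also set against the subunit it replaces. *Psmb8* made up 13.6%, 5.50%, 9.87%, 4.94% and 12.03% of the *Psmb8* and *Psmb5* UMIs of SyS-like cells. The share was 28.6% to 42.0% in endothelial-like, 13.6% to 25.2% in mural-like and 56.8% to 63.7% in macrophage-like cells. In log2 the ratio of the pair was lower in SyS-like cells by 2.57 ± 0.96, 1.32 ± 0.80 and 4.03 ± 0.81 (SD of the differences, n = 5), in 5 of 5 tumours against each class. An exact permutation test over 5 tumours (two-sided) gave p = 0.062 for each, the smallest it can give.

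The *Psmb10* share of its pair with *Psmb7* was 12.1% to 19.8% in SyS-like cells and above that in each other class (23.9% to 34.4%, 29.2% to 34.9% and 34.3% to 50%). The log2 ratio was lower by 1.10, 1.33 and 1.93 (exact permutation p = 0.062 each). *Psmb9* was different. Its share of the pair with *Psmb6* was 10.5% to 16.6% in 4 tumours and 29.8% in PD+MP. In mural-like cells it was 5.42% to 12%, lower than in SyS-like cells in 5 of 5 tumours (difference 0.83 ± 0.51, exact permutation p = 0.062). Against endothelial-like cells the difference was -0.55 ± 0.60 (lower in 4 of 5 tumours, exact permutation p = 0.1875), and against macrophage-like cells -1.32 ± 0.52 (5 of 5, p = 0.062).

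**Figure D3:**
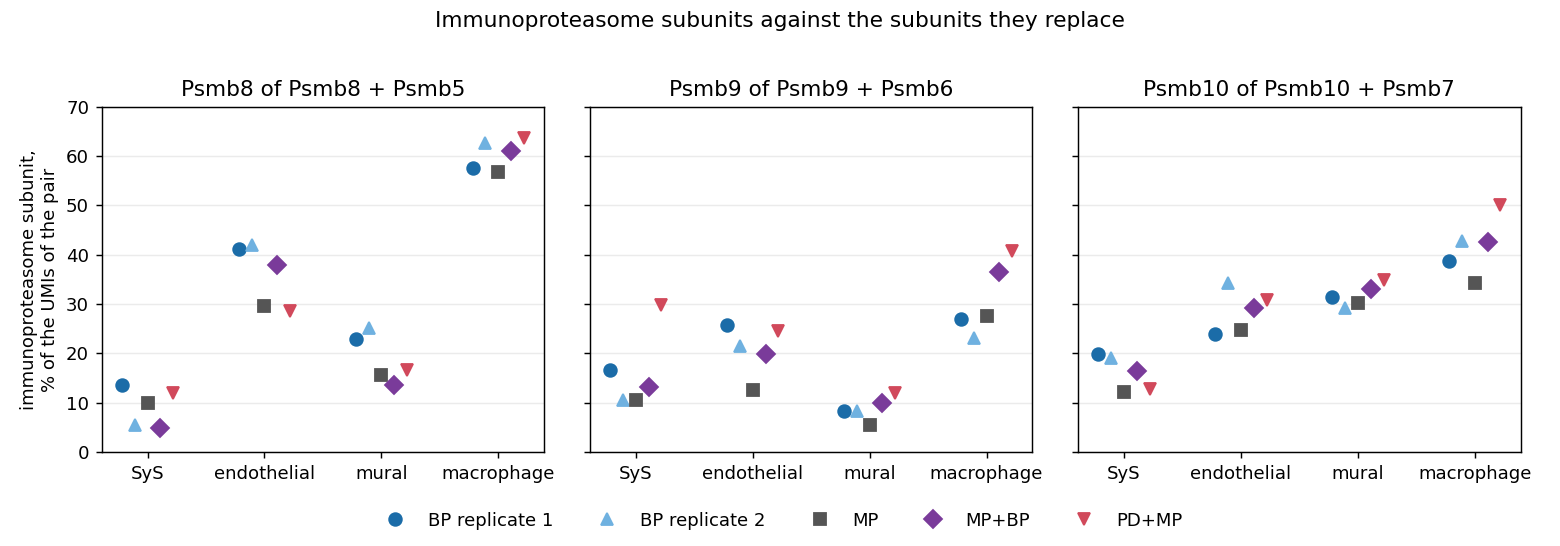
Share of each immunoproteasome subunit in the UMIs of its pair with the standard subunit it replaces (%), by class, 1 point per tumour. SyS-like shares of *Psmb8* (4.94% to 13.6%) lie far below those of macrophage-like cells (56.8% to 63.7%), and the *Psmb9* share of PD+MP (29.8%) stands above the other SyS-like points.

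*Nlrc5*, the class I transactivator, was higher in SyS-like cells than in both vascular classes. SyS-like cells had 46.0, 31.9, 21.9, 36.3 and 40.0 CPM. Endothelial-like cells had 11.9, 11.5, 11.6, 15.3 and 8.58 CPM and mural-like cells 13.3, 17.6, 14.6, 13.6 and 15.7 CPM, with no overlap. The differences were 1.35 (SE 0.21, adjusted p = 0.000493) and 0.95 (SE 0.24, adjusted p = 0.00744). The mural-like difference was 0.90 and still called without PD+MP, where it had 4 UMIs. Macrophage-like cells had 20.3, 19.98, 20.2, 26.5 and 22.4 CPM, lower in 5 of 5 tumours by CPM, while the TMM-scaled difference was 0.10 (adjusted p = 0.633) and that on total counts 0.66 and called higher. Protein was not measured.

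Among all named classes, T or NK-like cells had the highest *H2-K1* (2743 ± 616 CPM, SD, n = 5) and *B2m* (2635 ± 590 CPM). Dendritic-like cells had 1241 ± 143 and 1505 ± 175 CPM, and macrophage-like cells 1318 ± 470 and 2080 ± 627. By median, *H2-K1* was higher in dendritic-like cells (1227 against 1140 CPM) and *B2m* lower (1528 against 1781). B-like cells had higher means than dendritic-like cells, with 1543 and 1713 CPM (n = 3 tumours, 105 cells). The B-like name is uncertain, since *Siglech*, a marker on the dendritic list, was among the leading genes of that cluster. In PD+MP its sum held only 3 of 7 B markers, at 549 CPM together, beside 2279 CPM for the dendritic markers. The T or NK-like and dendritic-like classes hold 329 and 496 cells, and none of these small classes was tested. By the complement genes, the T or NK-like and dendritic-like sums held 0.295% to 10.3% and 0.447% to 8.93% of macrophage-like RNA. The B-like sums held 0.322% in BP replicate 1, 0% in MP and 6.82% in PD+MP. The part of this RNA in these levels was not tested.

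RNA released into the suspension gives UMIs in droplets of every class, so the levels were set beside genes that tumour cells should lack. In SyS-like cells *C1qa*, *C1qb* and *C1qc*, complement genes of macrophages, stood at 0.0510% to 0.182% of their macrophage-like level, and the class II gene *H2-Aa* at 0.0869% to 0.231%. The 10 genes stood at 5.86% (*Psmb8*, lowest tumour) to 227% (*Nlrc5*, highest tumour) of it. *H2-K1* was at 16.2% to 37.3%, *B2m* at 21.0% to 29.9% and *Psmb8* at 5.86% to 14.1%. Subtracting a macrophage-like profile scaled to the 3 complement genes changed no call of the 10. That profile made up only 0.0534% to 0.137% of SyS-like sums and 0.0453% to 0.668% of vascular sums. So little was taken off that a call could hardly change. The summed CPM of the 12 macrophage markers was 35.2 to 68.1 in SyS-like cells, 66.6 to 353.5 in endothelial-like, 76.0 to 157 in mural-like and 22180 to 24950 in macrophage-like cells. The 12 endothelial markers summed to 131 to 283.5 in SyS-like cells against 7614 to 8631 in their own class, and the 12 mural markers to 48.3 to 206 against 17010 to 22340. The 12 SyS markers summed to 97.2 to 229 in endothelial-like, 153 to 411 in mural-like and 113 to 185 in macrophage-like cells. In SyS-like cells they summed to 3063 to 4284. Tumour-cell RNA was not subtracted from the other classes, and its part in their levels was not tested.

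**Figure D4:**
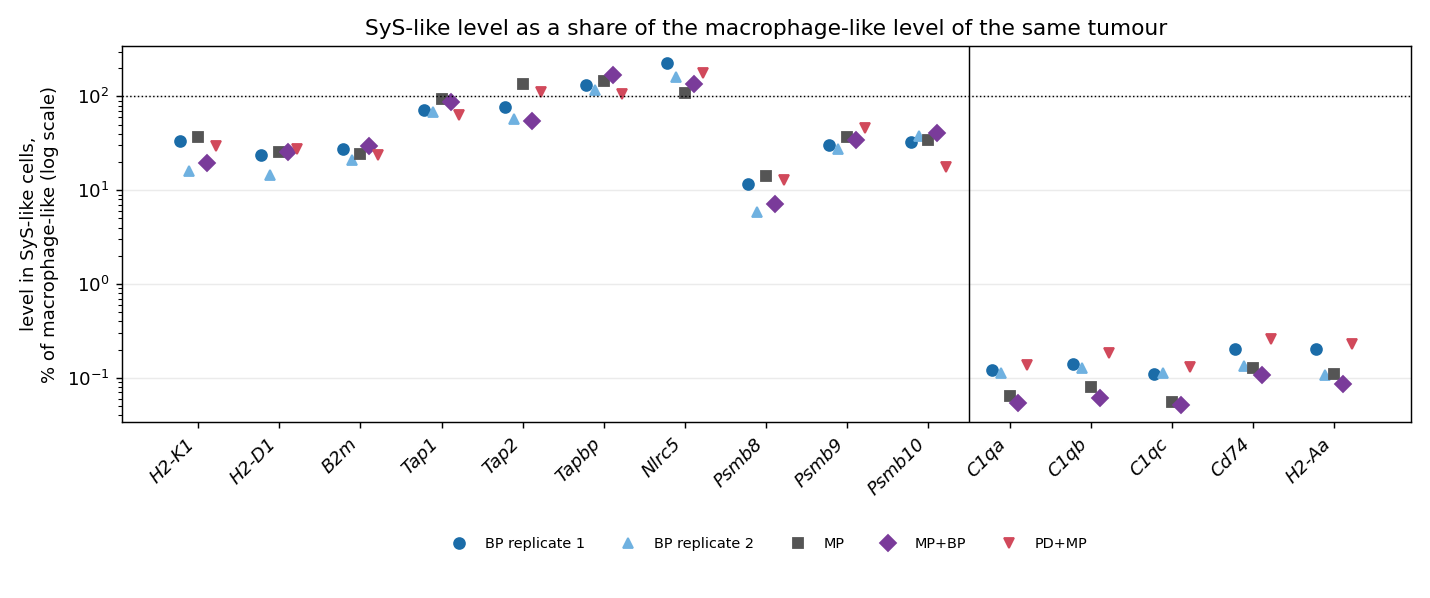
Level in SyS-like cells as % of the macrophage-like level of the same tumour (log axis), for the 10 genes and for genes that tumour cells should lack, 1 point per tumour. The 10 genes lie between 5.86% and 227%, and *C1qa*, *C1qb*, *C1qc* and *H2-Aa* between 0.0510% and 0.231%.

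The share of cells with a UMI gave the same order for *B2m* and *Psmb8*. With every cell thinned to 2000 UMIs, *B2m* was seen in 61.8% ± 7.3 of SyS-like, 80.5% ± 3.7 of endothelial-like, 76.5% ± 1.7 of mural-like and 95.9% ± 1.4 of macrophage-like cells (SD, n = 5). *Psmb8* was seen in 3.70%, 13.9%, 5.21% and 26.9% of them, and *Nlrc5* in 5.85%, 2.39%, 3.15% and 3.99%. As a background, *C1qa* was seen in 0.840% of thinned SyS-like cells and 95.9% of macrophage-like ones. Without thinning the shares were 94.3%, 89.4%, 87.7% and 98.6% for *B2m*, since SyS-like cells were the deepest (median 8763 to 12060 UMIs per tumour against 4008 to 5125, 2934 to 5216 and 4376 to 7173). Thinning left 24086, 1978, 1108 and 3482 cells of the 4 classes.

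The route around the 10 genes was read from lists of other genes. The standard proteasome core, the catalytic barrel itself, had 14 genes. Of these, 1 was called higher against endothelial-like cells (*Psma4*, 0.39), none in either direction against mural-like cells, and 4 lower against macrophage-like cells (*Psmb6* -0.78 and *Psma1* -0.67 the lowest). The list medians were 0.09, -0.07 and -0.11. On total counts the macrophage comparison turned to 8 higher and none lower, with a median of 0.45. The shares of all genes called lower, in the order endothelial-like, mural-like and macrophage-like, were 21.2%, 14.8% and 25%. Of 8 peptide trimming and loading genes, 3, 2 and 7 were lower in the 3 comparisons in that order, with medians of -0.31, -0.11 and -0.75. Against macrophage-like cells the lowest were *Lnpep* (-1.04), an aminopeptidase, and *Calr* (-0.87), a chaperone of the loading complex. On total counts this comparison had 1 lower and 1 higher. *Erap1*, which trims peptides in the endoplasmic reticulum, was higher than in mural-like cells (1.00) and lower than in endothelial-like cells (-0.42). The 4 genes of the proteasome activator and assembly were all lower than in macrophage-like cells, led by *Psme1* (-1.18) and *Psme2* (-0.80), which form the interferon-induced cap. On total counts the number was 1. Only *Pomp* (-0.73), which assembles the barrel, was lower than in endothelial-like cells, and none was called against mural-like cells.

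Other class I loci were mixed. Of 14 listed and 13 in the files, 10, 10 and 11 were tested. *H2-T23*, the ligand of an NK cell receptor, was lower against all 3 classes (-1.66, -0.91 and -3.63). Against endothelial-like cells 4 were lower and 2 higher (*H2-Q7* 1.07 and *Mr1* 0.72), and *Cd1d1* (-1.40), which presents lipids, was lower. Against mural-like cells *Cd1d1* was higher (1.62), as was *H2-Q6* (1.87), with 3 higher and 2 lower (*H2-Q10*, -2.15, had 0 to 3 UMIs in each mural-like sum). Against macrophage-like cells 7 were lower and none higher, with *H2-M2* the lowest (-9.99, 18 to 106 UMIs per tumour in macrophage-like and 0 to 3 in SyS-like cells). The list medians were -0.16, -0.43 and -0.67. Of all genes tested, 21.2%, 14.8% and 25% were lower and 33.3%, 19.3% and 37.1% higher, so the mural-like counts lay near the background. Reads of the H2-Q and H2-T genes may be shared.

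Most of the interferon-induced genes outside class I were called lower in the SyS-like cells, and none was called higher, against each class, where 21.2%, 14.8% and 25% of all genes tested were lower against endothelial-like, mural-like and macrophage-like cells. Of 28 listed, 27 were in the files. Against endothelial-like cells 25 of 27 were lower and none higher, with a median of -3.41. Against mural-like cells 17 of 26 were lower and none higher (median -1.37), and against macrophage-like cells 19 of 27 were lower and none higher (median -2.34). *Iigp1*, a GTPase of cell-intrinsic defence, had 1.85 to 3.44 CPM in SyS-like cells, 199 to 1004 in endothelial-like and 102 to 299 in mural-like cells (log2 -7.41 and -6.64). *Gbp4*, a guanylate-binding protein, had 1 to 11 UMIs per tumour in all SyS-like cells together and 15 to 186 in endothelial-like cells (-8.83). *Cxcl9*, a chemokine that draws T cells, had 0.042 to 1.02 CPM in SyS-like and 19.0 to 71.1 in mural-like cells (-6.65). Against macrophage-like cells the lowest were *Ifit3* (-6.68) and *Rsad2* (-6.15), which PD+MP dominates, with 1189 and 1303 UMIs in its macrophage-like cells against 26 to 105 and 35 to 175 elsewhere. Without PD+MP the counts against macrophage-like cells were 19 lower and 1 higher, and the median was -1.60. On total counts they were 25, 16 and 18 lower.

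Most of the receptor and signalling list was lower as well. Of 11 genes, 8, 6 and 7 were lower and 1 higher in each comparison, with medians of -1.01, -0.56 and -0.86. Over all genes tested the medians were 0.26, 0.19 and 0.33, with 21.2%, 14.8% and 25% lower and 33.3%, 19.3% and 37.1% higher. *Ifngr1*, the ligand-binding chain of the interferon gamma receptor, was at 23.1, 22.3, 9.93, 8.63 and 19.4 CPM in SyS-like cells, against 75.7 to 84.1 in endothelial-like, 35.2 to 51.9 in mural-like and 145 to 211 in macrophage-like cells. No class overlapped it (-2.49, -1.73 and -3.96, each called). *Ifngr2*, its partner chain, was at 39.1, 37.5, 37.5, 32.3 and 52.1 CPM, below every value of the other 3 classes (-1.01, -2.39 and -2.70, each called). The kinase gene *Jak1* was lower in all 3 (-1.01, -0.94 and -0.86), and *Jak2* was lower against endothelial-like (-1.22) and macrophage-like cells (-0.60) but not called against mural-like cells (-0.14). By CPM, macrophage-like *Jak1* was only 1.07 to 1.47 times the SyS-like level. Mean *Jak2* was 70.7 CPM in SyS-like and 71.7 in macrophage-like cells, which were higher in 3 of 5 tumours. Fitted values against macrophage-like cells carry the TMM scaling (median of all genes 0.33, against 0.89 on total counts). The genes called higher were *Socs1* (0.58 and 1.02, against endothelial-like and macrophage-like cells), an inhibitor of the pathway, and *Irf9* (0.65, mural-like).

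Among the factors known to act on class I promoters, single genes moved either way. *Irf1* was at 300.2, 271, 147, 143 and 140.2 CPM in SyS-like cells, above all macrophage-like values (31.5 to 51.6) and called there (1.77, adjusted p = 7.85e-05). It was not called against endothelial-like (-0.16) or mural-like cells (-0.19). *Rfx5*, which binds the X box of class I and class II promoters, was higher against all 3 classes (1.38, 0.97 and 1.41). *Irf8*, a factor of myeloid cells, was lower against all 3 (-2.99, -2.14 and -4.602). *Irf2* was lower than in endothelial-like cells (-0.80) and not called otherwise (0.09 and -0.27). *Ciita*, which drives class II, had a mean of 0.745 CPM in SyS-like cells against 9.19 in macrophage-like cells (-4.04), and was not called against the vascular classes (-0.89 and 0.11). Of the 13 factors, 4, 3 and 3 were higher and 3, 2 and 6 lower, with medians of -0.16, 0.09 and -0.27. The background was 33.3%, 19.3% and 37.1% higher and 21.2%, 14.8% and 25% lower, so the list as a whole lay near it or, for higher calls against macrophage-like cells, under it, and only the lower calls there were more frequent.

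Class II presentation was lower than in macrophage-like cells for all 8 genes of its list (median -7.07), with *Cd74*, the invariant chain, at a mean of 5.08 CPM in SyS-like and 3640 in macrophage-like cells. It was lower for 3 of 7 (1 higher) against endothelial-like and 5 of 7 against mural-like cells. The shares of all genes called lower were 25% against macrophage-like, 21.2% against endothelial-like and 14.8% against mural-like cells. Of 5 interferon ligand genes, only *Ifnb1* passed the filter, in the macrophage comparison, with 4, 0, 0, 7 and 14 UMIs in the macrophage-like and 1, 1, 0, 0 and 0 in the SyS-like sums.

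**Figure D5:**
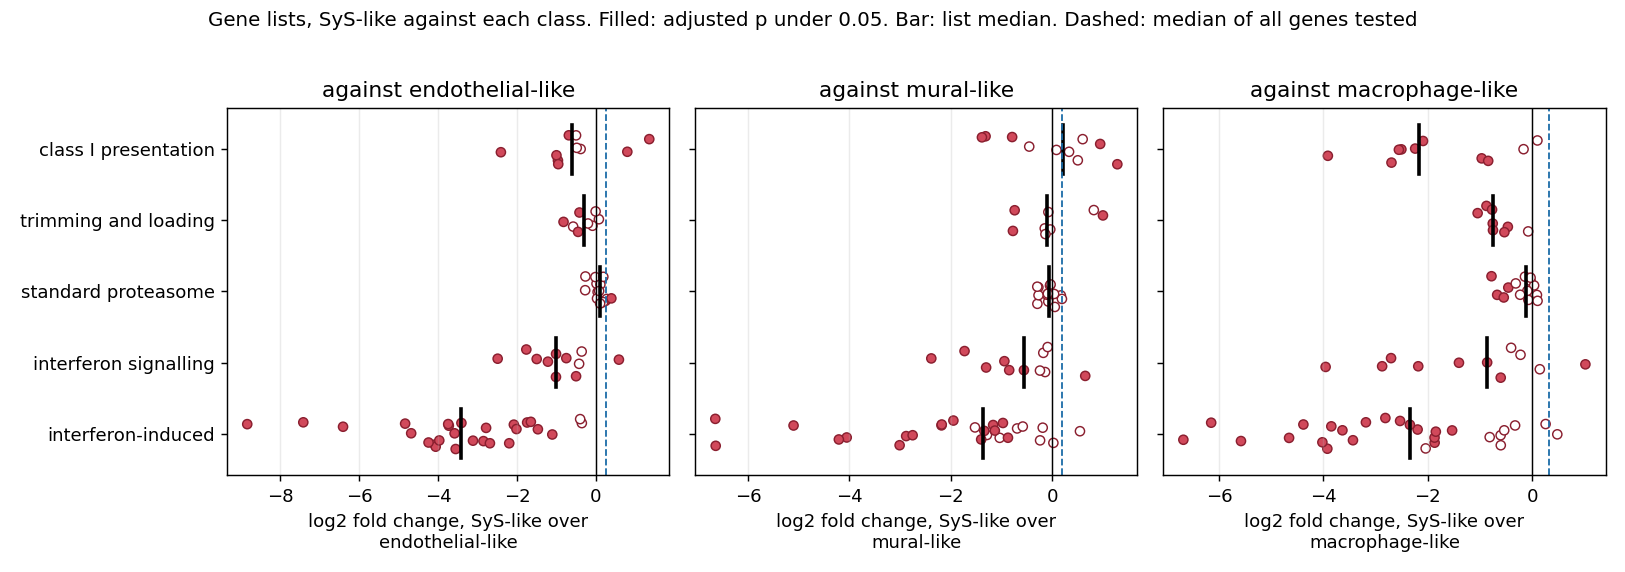
Log2 fold change of SyS-like over endothelial-like, mural-like and macrophage-like cells for the genes of 5 lists (1 point per gene, filled where the adjusted p was under 0.05, bar at the list median, dashed line at the median of all genes tested). The interferon-induced genes lie lowest against endothelial-like cells (median -3.41), and the standard proteasome genes lie near 0 in all panels (medians 0.09, -0.07 and -0.11).

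By label, the SyS-like cells of 3 tumours labelled BP alone or with MP were compared with those of the MP and PD+MP tumours. The log2 differences were -1.30 for *Psmb9*, -1.27 for *Psmb8*, -1.001 for *Tap2*, -0.81 for *Tap1*, -0.80 for *H2-K1*, -0.62 for *H2-D1*, -0.39 for *B2m* and -0.14 for *Tapbp*, and 0.20 for *Nlrc5* and 0.19 for *Psmb10*. None was called, and the adjusted p of *Psmb9* was 0.489. An unnamed cluster with 9 SyS markers, mostly of BP replicate 1 (460 cells) and MP+BP (1339 cells), is not in these sums. There *H2-K1* was at 724 and 589 CPM, *Psmb8* at 52.7 and 12.1 and *EGFP* at 43.7 and 36.8. With all unnamed clusters that had most SyS markers added, the differences were -0.64 for *H2-K1*, -1.10 for *Psmb8* and -1.16 for *Psmb9*, and none was called. The test called 0% of 20660 genes higher and 0% lower, with 2003 at an unadjusted p under 0.05. DESeq2 called 425 higher and 91 lower, none of them among the 10. The median of the 10 was -0.71 beside -0.02 for all genes. By tumour, PD+MP was highest for 8 of the 10 and BP replicate 2 lowest for 8, while BP replicate 1 lay close to MP for *Psmb8* (20.7 and 23.4 CPM), *Psmb9* (24.04 and 28.3) and *Tap1* (14.7 and 16.4). Without PD+MP the differences of *H2-D1*, *B2m* and *Tapbp* turned to 0.12, 0.14 and 0.17. Leaving out MP or PD+MP leaves 1 tumour without BP, which is then assumed to vary like the other arm. Without MP, against PD+MP alone, *Psmb9* was at -1.78 and passed the threshold, and PD+MP is the tumour that stood far above the rest for this gene.

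Whether the gap between classes differed with the label was tested as an interaction. *H2-K1* alone was called, for mural-like cells. Its levels in SyS-like and mural-like cells were 363 against 245 CPM for BP replicate 1, 185 against 173 for BP replicate 2 and 295 against 358 for MP+BP. For MP they were 310 against 129 and for PD+MP 600.1 against 137. The excess of SyS-like over mural-like cells was smaller in tumours with BP by 1.51 in log2 (interaction -1.51, SE 0.38, adjusted p = 0.0202), where 0.693% of 19776 genes were called higher and 0.359% lower. The value rests in part on 38 mural-like cells of PD+MP and was no longer called without PD+MP (-1.02), MP+BP (-1.27) or BP replicate 2 (-1.54). None of the 10 was called in the interaction with endothelial-like or macrophage-like cells.

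The tumour cells of 1 tumour were not uniform. Over SyS-like clusters with at least 100 cells in a tumour, *Psmb8* ran from 3.92 to 39.2 CPM in MP+BP (5 clusters) and from 14.5 to 61.9 in PD+MP (6 clusters). *H2-K1* ran from 365.5 to 834.5 CPM in PD+MP, from 291 to 720.4 in BP replicate 1 and from 151 to 377 in BP replicate 2. The 3 clusters of MP were close to each other (274 to 355 CPM). *Tapbp* stayed within a 1.75-fold range in each of the tumours. The highest cluster of PD+MP thus exceeded the lowest by 2.28 times for *H2-K1* and 4.26 times for *Psmb8*. Clusters of 1 tumour share its library and were not tested.

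Over 39 sums of a tumour and a named class, the genes most like the mean of the 10 (Pearson correlation of log2(CPM + 1), among 9777 genes) were *Ifi209* (0.896), *Ccr2* (0.882), *Ms4a4c* (0.877), *Gpr132* (0.874) and *Ikbkb* (0.860). Sums of 1 tumour share a library, and the sums differ in depth. Of the 10 themselves, *Psmb9* (0.941), *H2-K1* (0.931), *H2-D1* (0.928) and *Psmb8* (0.917) followed their common mean most closely, and *Nlrc5* (0.639) and *Tapbp* (0.519) least.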

How the data were processed

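Droplet-based 3′ single-cell RNA-seq was performed by the authors on 5 tumours. The deposited matrices hold 1 whole UMI count for each gene in each cell, unscaled, with no correction for free RNA. A matrix header names Cell Ranger 7.2.0, and the submitters' processing notes give mm10. Cells with under 750 genes (8488) or over 25% mitochondrial UMIs (666) were removed. Doublets were scored with Scrublet, and the highest scores up to 0.8% per 1000 cells were removed (2957), since the automatic threshold marked few cells in some tumours. Clustering used 3000 features, 30 principal components and Leiden at resolution 1 (scanpy 1.11.5, leidenalg 0.10.2), with the 10 genes and all gene lists left out of the features. A cluster took the class with most of its markers raised, with at least 3. Names are rebuilt here and may differ from the study's clusters, and a cluster with a T cell marker or with very shallow cells among SyS-marked ones stayed unnamed.

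UMIs were summed per tumour and class. The sums were tested with edgeR 4.0.16 (TMM, filterByExpr, quasi-likelihood) with a block for each tumour, because the classes of a pair were dissociated together, and p-values were adjusted by Benjamini-Hochberg over all genes tested. There are 3 labels with 1 tumour, and SyS-like sums labelled BP (3) were compared with the others (2). DESeq2 1.42.0 and the other alternatives are given at the end. In a test on simulated data of the endothelial design (20004 genes), 33 and 40 of 50 genes set to a log2 change of -2 and 2 were recovered, and 10 and 19 of 50 set to -1 and 1, with 14 false calls. Subunit ratios used 1 UMI added to each sum. Confidence intervals and floors were not printed, as values are shown by tumour, and p-values measure only the spread between these tumours. Gene coordinates came from GENCODE M21. The members, gene lists, motifs and markers were chosen with earlier results of these data known. Named were all 10 genes, fixed signalling, class II and complement genes, and up to 2 called genes per list and direction with the largest change. A gene of the signalling list is not reported here.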

Additional observations from a re-analysis of the deposited data

Results flagged for a closer look

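PD+MP stood apart from the other 4 tumours for 4 of the 10 genes, in 5 of 40 groups of 5 tumours tested with Dixon's criterion (0.71), which chance passes in about 1 group in 20. The 40 groups are not independent, because the 10 genes are read from the same sums. The number that passed therefore cannot be weighed against that rate. In its macrophage-like cells *B2m* was at 3189 CPM (1734 to 1960.1 in the others), *Tap1* at 48.8 (16.4 to 20.6), *Tapbp* at 158 (80.9 to 100.3) and *Psmb9* at 152 (55.7 to 78.4). In its SyS-like cells *Psmb9* was at 70.2 CPM (15.5 to 28.3). Of the macrophage-like cells of PD+MP, 368 belonged to a cluster led by *Spp1*, *Mmp12*, *Ly6c2*, *Ifit3* and *Rsad2*, which held 524 cells over all tumours. In these 368 cells *B2m* was at 3955 CPM, *Tap1* at 72.5, *Tapbp* at 180.3 and *Psmb9* at 216. In the 455 cells of the largest macrophage-like cluster of the same tumour the levels were 2513, 28.0, 129 and 93.7 CPM. The part of the cluster in the tumour's values was not tested.

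The interaction of class and label for *H2-K1* with mural-like cells (-1.51) passed the test of the difference itself.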

How the results depend on the processing

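Of the counts of the 10 genes called, leaving out single tumours moved those against endothelial-like cells to between 4 and 8 lower (5 with all tumours), the 8 arising without PD+MP, when *H2-K1* (-0.77), *Tap1* (-0.80) and *Psmb9* (-0.76) were called. With BP in the label, 0 to 1 were lower (none with all, *Psmb9* against PD+MP alone without MP), and for the interaction with mural-like cells 0 to 2 were called (1 with all, 2 without MP, none without BP replicate 2, MP+BP or PD+MP). With at least 10 UMIs in every sum, which left *Nlrc5* untested in both vascular comparisons and *Tapbp* in the mural one, 1 was higher against endothelial-like cells (2 before) and 0 against mural-like cells (2 before). On total counts 2 were higher against macrophage-like cells (none with TMM), because all genes shifted: the median of all genes went from 0.33 to 0.89 and the share of higher calls from 59.8% to 77.0% (7356 higher and 4951 lower to 10979 and 3274). Against mural-like cells the share went from 56.6% to 69.3%, and the median from 0.19 to 0.41.

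Directions turned for values near 0. Against mural-like cells *H2-D1* was -0.03 with SyS-like sums thinned and -0.18 without PD+MP (-0.18 to 0.26 over the left-out tumours). Against macrophage-like cells *Tapbp* was 0.40 on total counts and 0.036 with at least 10 UMIs, and *Nlrc5* was -0.004 thinned and -0.027 without BP replicate 1 (-0.027 to 0.20 over the left-out tumours). By label, values ran between those without MP and those without PD+MP, from -1.06 to 0.12 for *H2-D1*, -0.73 to 0.14 for *B2m*, -0.35 to 0.17 for *Tapbp* and -0.14 to 0.75 for *Nlrc5*. The cause was not tested. *H2-D1* lost its call against endothelial-like cells on total counts (-0.56), with at least 10 UMIs (-0.60) and without BP replicate 1 (-0.72), BP replicate 2 (-0.49), MP (-0.79) or MP+BP (-0.71). *Psmb9* gained one against mural-like cells under 4 alternatives, among them total counts (0.82).

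Leaving out the tumour pairing (no replicate block) changed no call: 5 lower and 2 higher, 3 and 2, and 8 and 0 in the 3 comparisons, with *Psmb8* at -2.28, -1.16 and -3.80. The subunit ratios kept their direction in all 18 rerun values. By label edgeR called 0 genes and DESeq2 425 higher and 91 lower, and without MP, which leaves PD+MP alone without BP and assumes that it varies like the other arm, edgeR called 418 and 217. An alternative, adding unnamed clusters with most SyS markers to the SyS-like class, was chosen after seeing the data and moved the number higher against mural-like cells from 2 to 3, with no other count changed. Depth limits the PD+MP vascular values, the rarer genes in mural-like cells, and any statement by label, where single tumours stand for MP, MP+BP and PD+MP.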
